A study of Mus musculus with 13 samples.

Results

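The 10 genes Fkbp5, Tsc22d3, Zbtb16, Sgk1, Pdk4, Errfi1, Cebpd, Mt1, Mt2 and Sult1a1, all known as genes that glucocorticoid hormones induce, were followed through 2 days in mouse back skin. Each was read from the brightest probe set that the platform annotation gives to that gene alone; each of the 10 had 1 such probe set, and all 10 were among the 14953 genes tested out of 19938 with a single-gene probe set. The tissue was whole back skin of male C57Bl6 mice at postnatal day 46, in telogen (the rest period of the hair follicle), with no treatment or altered allele named in the labels. RNA of 3 mice was pooled for each of 13 arrays, 1 every 4 h for 48 h. Time of day is given as ZT, hours since the lights came on, and the dark phase began at ZT12 of a 24 h cycle. ZT2 was sampled on 3 arrays and ZT6, ZT10, ZT14, ZT18 and ZT22 on 2 arrays each, the first and the second collection day; the third ZT2 array was taken at hour 50. No hormone level was among the data. A pool hides the spread between its mice, so the errors given here are the spread of pools around each fit. In whole skin a change in the number of cells of a type and a change in RNA per cell cannot be told apart.

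Glucocorticoids, mainly corticosterone in mice, are made by the adrenal cortex and enter cells freely. Bound to them, the glucocorticoid receptor leaves its chaperones, moves to the nucleus and binds a paired DNA sequence, the glucocorticoid response element, from which it raises or lowers transcription. In nocturnal rodents the hormone is known to rise towards the end of the light phase, and in skin it restrains inflammation and growth of the epidermis. The 10 genes serve different ends. Fkbp5 encodes a co-chaperone that holds back the receptor itself, Tsc22d3 an anti-inflammatory leucine zipper protein (GILZ), Zbtb16 the zinc finger repressor PLZF and Cebpd a bZIP transcription factor. Sgk1 encodes a kinase that raises sodium transport, Errfi1 an inhibitor of the EGF receptor, Pdk4 a kinase that shuts off pyruvate dehydrogenase, Mt1 and Mt2 the metal-binding metallothioneins, and Sult1a1 a sulfotransferase of phenols.

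RefSeq promoter windows (GRCm38.p6, 250 bases before to 50 after a transcript start) were at hand for 8 of the 10 genes, in 16 windows. On both strands they were searched for the half-site of the glucocorticoid response element, AGAACA; for the full element, which is that half-site followed after 3 bases by its reverse complement; for the core of the metal response element, TGCACNC or TGCGCNC; and for the clock motifs CACGTG (E-box), TTANNTAA (D-box) and AGGTCA (half-site of the ROR and REV-ERB receptors). The full glucocorticoid element includes 2 half-sites and was counted under both names. The full element was found in 3 of all 32851 windows (0.00913%), and 1 of these 3 belongs to Sgk1. It lies in the fifth of the 6 Sgk1 windows, 189 bases before that start and 965 bases before the start of the last window, at chr10:21993701-21993715 on the plus strand, inside the span of the longer Sgk1 transcripts. The half-site was in 5 of the 16 windows, those of Tsc22d3, Sgk1 and Sult1a1, and in 19.0% of all windows. Metal response cores numbered 3 in the Mt1 window and 4 in the Mt2 window, where 1.97% of all windows held at least 3 and 0.517% at least 4. Sgk1 had 1 metal response core in its last window, against 25.7% of all windows with any. An E-box was in the Fkbp5 window and in the fifth Sgk1 window, there overlapping a further half-site (7.15% of all windows), a D-box in the Sult1a1 window (6.0%) and the AGGTCA half-site in 3 windows, of Sgk1 and Errfi1 (16.3%). The window of Pdk4 held none of these motifs. These matches are a description of letters, not of binding.

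The 4 stretches below are shown because they carry the response elements named above, each read 5′ to 3′ along its gene. The Sgk1 stretch (chr10:21993640-21993889, plus strand) has the full glucocorticoid element in capitals, the Fkbp5 stretch (chr17:28486150-28486399, minus strand) its E-box in capitals, and the Mt2 stretch (chr8:94172368-94172617, plus strand) and the Mt1 stretch (chr8:94179056-94179082, plus strand) in capitals the metal response cores that lie before the start. The E-box and the further half-site of the Sgk1 stretch are left in lower case; the other 2 cores of Mt1 and 1 of Mt2 lie just after it.
Sgk1: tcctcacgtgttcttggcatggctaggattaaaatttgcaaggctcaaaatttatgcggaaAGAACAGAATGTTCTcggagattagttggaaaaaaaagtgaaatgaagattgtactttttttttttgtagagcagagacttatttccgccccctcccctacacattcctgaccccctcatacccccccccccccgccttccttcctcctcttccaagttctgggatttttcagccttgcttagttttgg
Fkbp5: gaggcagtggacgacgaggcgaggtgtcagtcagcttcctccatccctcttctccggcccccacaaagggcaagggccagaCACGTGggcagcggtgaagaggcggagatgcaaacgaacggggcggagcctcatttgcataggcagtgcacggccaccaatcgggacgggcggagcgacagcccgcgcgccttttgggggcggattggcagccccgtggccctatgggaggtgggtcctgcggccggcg
Mt2: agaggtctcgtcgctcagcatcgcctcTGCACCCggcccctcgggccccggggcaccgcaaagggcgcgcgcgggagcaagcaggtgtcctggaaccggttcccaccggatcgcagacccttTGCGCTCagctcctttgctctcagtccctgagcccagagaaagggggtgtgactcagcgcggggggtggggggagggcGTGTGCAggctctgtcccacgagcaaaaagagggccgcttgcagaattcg
Mt1: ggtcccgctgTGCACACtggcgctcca

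Skin markers were high on every array. Median intensity per array was 353.8 (first ZT2) to 392.8 (first ZT10). The second ZT10 array had 389.6, and the ZT14 arrays had 385.5 and 365.4. The keratinocyte genes Krt5 and Krt10 and the fibroblast genes Col1a1 and Dcn were on average at percentiles 99.92, 99.9, 99.97 and 99.96 of all genes. The summed intensity of 7 keratinocyte markers stayed between 68254 and 74321. Liver transcripts were present in every pool, with 12 of 12 liver markers measured and a summed intensity from 15464 in the second ZT22 array to 104429 in the first ZT10 array. The second ZT22 array had hair shaft keratins at 33705 against at most 4125 in the others. The first ZT2 array had the highest pancreas markers, 5847 against a median of 2383, and the lowest fibroblast markers, 50081 against a median of 68601. Results that move with these arrays are given with and without them.

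Fkbp5, Tsc22d3 and Zbtb16 were the members with a called daily rhythm, and all 3 were high at ZT10 and ZT14 and low at the other times. Fkbp5 had intensities of 1114 and 1169 at ZT10 and of 1385 and 1387 at ZT14 (first and second day). At ZT18 it read 570 and 819, at ZT22 704 and 572, at ZT2 564, 577 and 538, and at ZT6 453 and 681. The 4 arrays around lights off all lay above the other 9, a split whose share over all genes was not counted.

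Tsc22d3 read 2179 and 2204 at ZT10 and 2415 and 2303 at ZT14. It was at 1071 and 1727 at ZT18, 1426 and 1261 at ZT22, 1231, 965 and 1009 at ZT2, and 1246 and 1085 at ZT6. Again no array outside ZT10 and ZT14 reached these 4, and the nearest was the second ZT18 array. Zbtb16 stood at 4070 and 4002 at ZT10 and at 4139 and 4179 at ZT14, with all other arrays between 1456 and 2529. Its ZT18 arrays were the lowest (1456) and the highest (2529) of those 9. For Tsc22d3 and Zbtb16 too, the share of all genes with such a split was not counted.

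**Figure D1:**
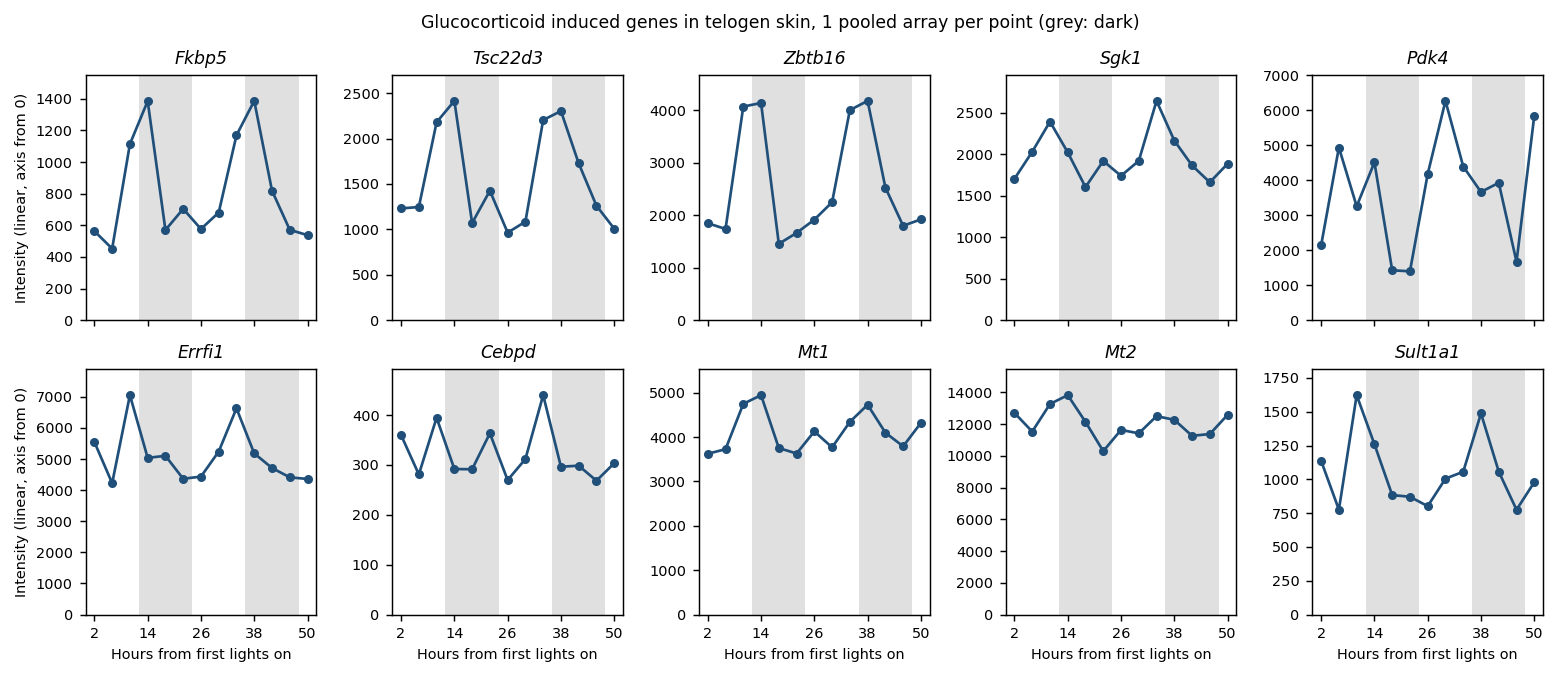
Intensity (linear, axis from 0) of each of the 10 genes on 13 arrays against hours from the first lights on, 1 pooled array per point, with dark phases in grey. Fkbp5, Tsc22d3 and Zbtb16 form a block of 2 high arrays at hours 10 and 14 and again at 34 and 38, while Sgk1, Errfi1 and Cebpd have their highest value of each day at hours 10 and 34.

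Around lights off (ZT10 and ZT14, 4 arrays) the level was higher than around lights on (ZT22 and ZT2, 5 arrays) by 1.17 ± 0.14 in log2 for Zbtb16 (SE, 2.25-fold), by 1.06 ± 0.13 for Fkbp5 (2.08-fold) and by 0.92 ± 0.13 for Tsc22d3 (1.89-fold). The adjusted p-values were 0.00297, 0.00406 and 0.00682 (limma). Sgk1 was the fourth called gene, at 0.36 ± 0.08 (1.29-fold, adjusted p 0.0407), and no member was called in the other direction. In all, 4 of 10 members were called higher, where 0.983% of all genes tested were called higher and 0.889% lower. At an unadjusted p under 0.05 the count was 9, all but Cebpd, against 8.81% of genes higher. All 10 differences were above 0, with a median of 0.48 against 0.01 over all genes tested, where 7953 of 14953 were above 0. For 5 members (Fkbp5, Tsc22d3, Zbtb16, Sgk1 and Mt1) every array around lights off lay above every array around lights on, which was so for 3.01% of genes.

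With the first ZT2 and the second ZT22 arrays left out, 8 of the 10 were called higher, the 4 above and Errfi1, Mt1, Mt2 and Sult1a1; but 1557 genes of 14953 were then called higher in place of 147. Fkbp5, Tsc22d3 and Zbtb16 kept their calls whichever 1 array was left out. Sgk1 lost its call in 8 of those 13 fits. Genes called higher ranged from 44 to 683 over the 13 fits. With the mean standardized log2 level of the adipocyte markers as a covariate, a fit tried only once the data were known, no member was called, and 17 genes in all were called higher in place of 147. The differences of Fkbp5, Tsc22d3 and Zbtb16 were then 1.20, 1.09 and 1.23. Adipocyte markers had 7 of 8 genes above 0 in this comparison and 2 called higher. Their summed intensities were 27622 to 32182 around lights off and 23405 to 28183 around lights on. Those sums ran with Fkbp5 at r = 0.56, Tsc22d3 at 0.59 and Zbtb16 at 0.61, the highest among the marker lists. Red blood cell markers came next, at 0.56, 0.58 and 0.48. The part of adipocyte markers in the result was not tested further.

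A 24 h cosine curve over all 13 arrays was called for the same 3 genes, Fkbp5 (adjusted p 0.0221), Tsc22d3 (0.0221) and Zbtb16 (0.0201, limma), which is 3 of 10 members against 2.13% of genes. Fitted peaks were at 13.02 ± 0.70 h for Fkbp5, 13.02 ± 0.70 h for Tsc22d3 and 11.75 ± 0.67 h for Zbtb16 (SE), and the differences between these peak times were not tested. Fitted peak-to-trough differences were 1.23 ± 0.21, 1.09 ± 0.19 and 1.31 ± 0.22 in log2. Sgk1 came next, with 0.47 ± 0.10, a fitted peak at 10.24 ± 0.79 h and an adjusted p of 0.0577. At an unadjusted p under 0.05 there were 8 members against 18.5% of genes, all but Cebpd and Mt2. All 3 calls were lost, to a count of 0, without any 1 of the 4 arrays of ZT10 and ZT14. Over all genes the 24 h calls then fell from 318 to between 126 and 195. Tsc22d3 also lost its call without the second or the third ZT2 array, with 195 and 203 genes called. With the collection day as a block over hours 2 to 46, only Zbtb16 was called, and 211 genes in all. A test of time of day that assumes no curve called Fkbp5 and Zbtb16 (adjusted p 0.0332 and 0.0356, limma), 2 of 10 members against 0.294% of genes. Leaving out 1 array brought this count to 0 for the first ZT10 and ZT14, the second ZT2, ZT10 and ZT14 and the third ZT2 array, and to 1 for either ZT6 array and the second ZT22 array. It was 6 when the first ZT2 array and the second ZT22 array were both left out. The share of all genes called for time of day in these reduced fits was not counted. With both arrays left out, genes called higher around lights off rose from 147 to 1557.

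Sgk1, Errfi1 and Cebpd had another shape, with 1 high time in place of a pair. Errfi1 read 7055 and 6631 at ZT10, against 5038 and 5181 at ZT14 and 4223 and 5241 at ZT6. Cebpd read 395 and 440 at ZT10, 292 and 296 at ZT14 and 281 and 312 at ZT6. Sgk1 read 2391 and 2641 at ZT10, 2021 and 2163 at ZT14 and 2028 and 1919 at ZT6. On the arrays of ZT22 and ZT2 Errfi1 lay between 4360 and 5548, Cebpd between 268 and 363 and Sgk1 between 1661 and 1918. In each of the 3 both ZT10 arrays lay above all 11 others. That is partly how the 3 were grouped, and its share over all genes was not counted. The ZT14 level was back near the rest of the day for Errfi1 and Cebpd and between the extremes for Sgk1.

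The ZT14 minus ZT10 difference was -0.42 ± 0.14 in log2 for Errfi1 (0.75-fold), -0.48 ± 0.15 for Cebpd and -0.26 ± 0.11 for Sgk1 (SE). These were the 3 members with an unadjusted p under 0.05 for a lower level at ZT14, against 2.94% of genes. Over the same step Fkbp5 had 0.28 ± 0.19, Tsc22d3 0.10 ± 0.19 and Zbtb16 0.04 ± 0.20, with unadjusted p-values of 0.183, 0.598 and 0.837 (limma). No gene of the array was called over this step after adjustment, and the difference in step between the 2 sets of genes was not itself tested. The sets were told apart after their values were seen.

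**Figure D2:**
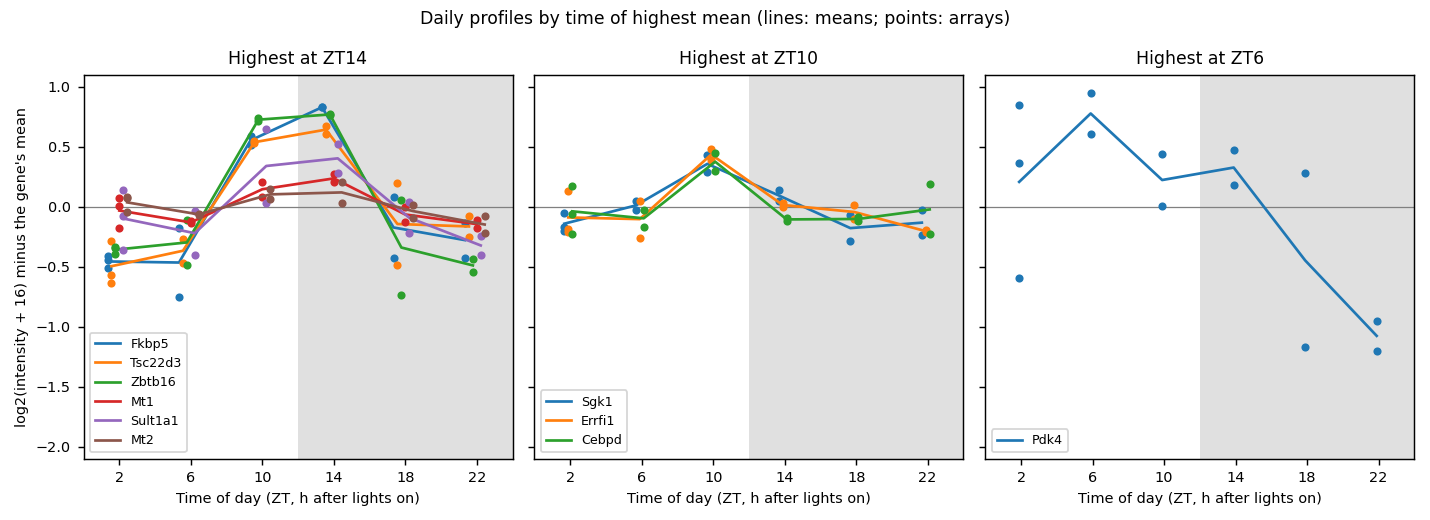
log2(intensity + 16) of each gene minus the mean of its 6 time-of-day means, against time of day (ZT, h after lights on; grey, dark), with lines for the means and points for single arrays, set slightly apart along the axis for clarity. Of the 6 genes with the highest mean at ZT14, Fkbp5, Tsc22d3 and Zbtb16 swing the most, Sgk1, Errfi1 and Cebpd are highest at ZT10 alone, and the 3 Pdk4 arrays at ZT2 are far apart.

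For most of the genes the wide differences between neighbouring times lay from ZT6 to ZT10 and from ZT14 to ZT18. ZT10 was above ZT6 by 1.02 ± 0.19 in log2 for Fkbp5 (2.02-fold), by 1.02 ± 0.20 for Zbtb16 and by 0.91 ± 0.19 for Tsc22d3. An unadjusted p under 0.05 for a higher level at ZT10 was found in 8 of 10 members, all but Mt2 and Pdk4, against 2.75% of genes. ZT18 was below ZT14 at that level in 6 members (Fkbp5, Tsc22d3, Zbtb16, Sgk1, Mt1 and Sult1a1), against 2.37% of genes, with a difference of -1.11 ± 0.20 for Zbtb16 (0.46-fold) and 0.499-fold for Fkbp5. After adjustment over all genes (limma) no step of any member was called. The share of genes called was 0.0334% from ZT2 to ZT6, 0.00669% from ZT22 to ZT2, and 0% for each of the other 4 steps. Without the second ZT18 array there were 2 calls of a member, summed over the 6 steps. The share of all genes called in that fit was not counted. Over the steps from ZT18 through ZT22 and ZT2 to ZT6, 1 member had an unadjusted p under 0.05, Pdk4, with ZT2 above ZT22 by 1.28 ± 0.43. Of all genes, 4.17% had such a p from ZT18 to ZT22, 8.26% from ZT22 to ZT2 and 3.49% from ZT2 to ZT6.

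The metallothioneins had small differences, and neither was called in any test on all arrays. Mt1 was at 4749 and 4343 at ZT10 and at 4946 and 4729 at ZT14, against 3625 to 4320 on the other 9 arrays. The groups were narrowly apart, with the second ZT10 array at 4343 and the third ZT2 array at 4320. The share of genes with such a split was not counted. The difference around lights off against lights on was 0.28 ± 0.07 in log2 (1.21-fold, adjusted p 0.0851). Mt2 ranged from 10295 to 13826 over all arrays, and its ZT10 and ZT14 arrays (12269 to 13826) overlapped those of ZT22 and ZT2 (10295 to 12707). Its difference was 0.17 ± 0.07 (adjusted p 0.265). The fitted peak of Mt1 was at 12.27 ± 1.27 h with a 1.23-fold range, that of Mt2 at 10.84 ± 1.85 h with 1.13-fold.

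Among the listed genes for other metallothioneins and metal handling, none was called for a 24 h rhythm or around lights off against lights on. Mt4, a metallothionein of stratified epithelia, had a difference of -0.39 ± 0.12 around lights off against lights on (adjusted p 0.151) and a fitted peak at 0.62 h. Mt3, best known from brain, had 0.08 ± 0.13. The zinc importer gene Slc39a10 had -0.38 ± 0.09 (adjusted p 0.0799). Of the 7 metal response genes tested, Mt3 and Mt4 included, 5 were above 0, against 7953 of 14953 genes. None of the 7 was called, and their median difference was 0.10.

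Sult1a1 was highest in the first ZT10 array (1623) and the second ZT14 array (1487), and its other evening arrays read 1259 (first ZT14) and 1056 (second ZT10). The first ZT2 array, at 1136, lay above the last of these, so the groups overlapped. The difference around lights off against lights on was 0.58 ± 0.15 (SE, adjusted p 0.0863). Sult1a1 is strongly expressed in liver, and over the 13 arrays its level ran with the summed liver markers at r = 0.72 and with 2 red blood cell markers at r = 0.74, the highest values among the 12 marker lists. The first ZT10, second ZT14 and first ZT2 arrays were the 3 highest in liver markers (104429, 94077 and 84167). Liver markers themselves were above 0 in 12 of 12 genes in the same comparison, with a median of 0.96, and reached from 25592 to 104429 around lights off and from 15464 to 84167 around lights on. Adjusted for the liver score, the Sult1a1 difference was 0.32 ± 0.10 (adjusted p 0.201). The same covariate left Fkbp5 at 0.98 ± 0.15, Tsc22d3 at 0.90 ± 0.16 and Zbtb16 at 1.13 ± 0.16, all still called, and Mt1 at 0.27 ± 0.09. The part of liver or blood transcripts in the Sult1a1 result was not tested beyond this fit.

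**Figure D3:**
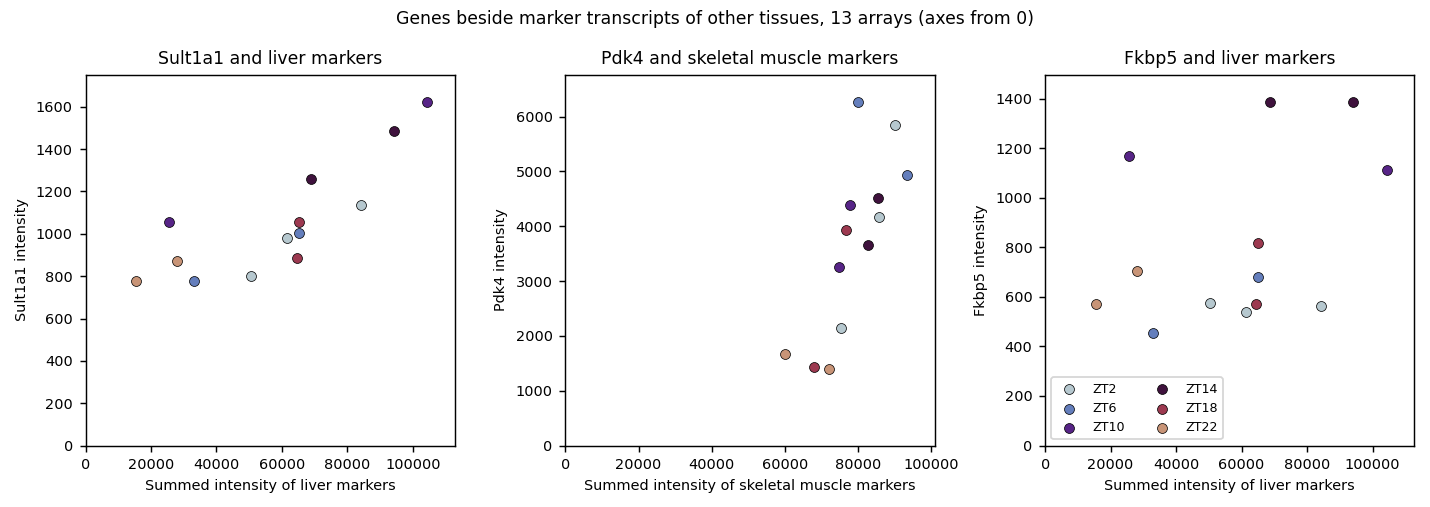
Intensity of Sult1a1, Pdk4 and Fkbp5 on 13 arrays (coloured by time of day) against the summed intensity of 12 liver or 10 skeletal muscle marker genes, both axes linear and from 0. Sult1a1 is highest where liver markers are highest (104429 and 94077), the 3 arrays lowest in Pdk4 (1398 to 1670) are the 3 lowest in muscle markers (60112 to 72040), and Fkbp5 is as high at ZT10 in the array with 25592 as in the array with 104429.

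Pdk4 had the widest range of the 10, from 1398 to 6266, but its arrays of the same time disagreed. It read 2141, 4178 and 5841 at ZT2, 4934 and 6266 at ZT6, 3255 and 4392 at ZT10, 4511 and 3664 at ZT14, 1428 and 3926 at ZT18 and 1398 and 1670 at ZT22. Both ZT22 arrays were low and both ZT6 arrays high, while ZT2 and ZT18 each held a low and a high array. The fitted range was 1.46 ± 0.42 in log2, with a peak at 8.09 ± 1.02 h and an adjusted p of 0.173, and the difference around lights off against lights on was 0.71 ± 0.32 (adjusted p 0.308). Pdk4 is abundant in skeletal muscle, a layer of which lies under mouse skin, and over the 13 arrays it ran with the summed muscle markers at r = 0.80. Those markers went from 60112 in the second ZT22 array to 93382 in the first ZT6 array. The 3 arrays with the lowest Pdk4, both ZT22 arrays and the first ZT18 array, were also the 3 lowest in muscle markers (60112, 67989 and 72040). The part of muscle in the result was not tested beyond the fit that follows. With the muscle score as a covariate the fitted range was 0.73 ± 0.37 (adjusted p 0.459) and the lights off against lights on difference 0.45 ± 0.32. On the second day Pdk4 was higher than on the first by 0.52 ± 0.19 in log2 (unadjusted p 0.0244, adjusted p 0.604, limma), the one member at that level, against 6.46% of genes.

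Of the 10 genes none was called in dark (6 arrays) against light (7 arrays), where 0.0201% of genes were called, and 1 had an unadjusted p under 0.05 against 8.28% of genes. That was Pdk4, with a dark minus light difference of -0.77 ± 0.32. Fkbp5 had 0.30 ± 0.27 and Zbtb16 0.01 ± 0.29. This was a separate fit without time of day, so its errors also hold the differences between times within a phase. For Fkbp5 the SE was 0.27 here and 0.13 around lights off against lights on.

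Fitted to each day separately, Fkbp5 peaked at 13.39 h on the first day and 12.73 h on the second, Zbtb16 at 11.43 and 12.30 h, and Tsc22d3 at 11.89 and 13.77 h. Cebpd, with its small swing, had fitted peaks at 3.01 and 10.29 h. No member and no gene was called for a different curve between days or for a shift in level between days (0% each; limma), and at an unadjusted p under 0.05 the first count was 0 of 10 members against 12.8% of genes. At ZT18, with 1 array a day and so no test, 8 of 10 members were higher on the second day, with a median of 0.23 in log2 against -0.01 over all genes. Pdk4 was higher there by 1.45, Zbtb16 by 0.79, Tsc22d3 by 0.68 and Fkbp5 by 0.51. At ZT6 the picture was alike, with 7 of 10 higher on the second day and a median of 0.23 against 0.00 over all genes, and at the other 4 times 5 or 6 of 10 were higher.

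A 12 h component was called in no gene (0%; limma), and at an unadjusted p under 0.05 in 4 members, Fkbp5, Tsc22d3, Zbtb16 and Mt1, against 5.43% of genes.

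Across the 13 arrays Fkbp5, Tsc22d3 and Zbtb16 ran together, with r of 0.93 (Fkbp5 and Tsc22d3), 0.94 (Fkbp5 and Zbtb16) and 0.90 (Tsc22d3 and Zbtb16). Zbtb16 and Mt1 had r = 0.87, Errfi1 and Cebpd r = 0.77, and Mt1 and its neighbour Mt2, whose starts lie 6471 bases apart, r = 0.70. Pdk4 had r between -0.07 (Cebpd) and 0.46 (Mt1) with the other 9, with 0.19 for Fkbp5, 0.43 for Zbtb16 and 0.45 for Sgk1. These correlations describe arrays that share their time of day and their pools. After the mean of each time of day was taken out, r was 0.79 for Fkbp5 and Zbtb16, 0.58 for Tsc22d3 and Zbtb16 and 0.42 for Fkbp5 and Tsc22d3. It was 0.45 for Zbtb16 and Mt1, 0.50 for Errfi1 and Cebpd and 0.04 for Mt1 and Mt2. Pdk4 had 0.72 with Zbtb16 and 0.77 with Mt1. Some other pairs ran in opposite directions, with -0.66 for Sgk1 and Mt2, -0.60 for Cebpd and Mt1 and -0.58 for Pdk4 and Errfi1. Errfi1 and Mt1 also had -0.58, Sgk1 and Errfi1 -0.52 and Fkbp5 and Mt2 -0.49. The deviations leave 7 residual degrees of freedom, and these correlations were not tested.

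Among the other genes tested, Glul, the glutamine synthetase gene, was nearest to Fkbp5 (r = 0.94 over 13 arrays), followed by Fam107a (0.92) and Ubr2 (0.91). Herpud1, of the endoplasmic reticulum, and Angptl7, for a secreted relative of the angiopoietins, were nearest to Tsc22d3 (both 0.94), and Peli2 and Slc46a3 to Zbtb16 (0.94 and 0.93). Pdk4 was nearest to the ubiquitin ligase gene Fbxo32 (0.94), Art1 (0.94) and the mitochondrial carrier gene Ucp3 (0.93), genes known from muscle. Mt1 was nearest to Lpin1 (0.92), Sgk1 to Ms4a6b (0.92), Errfi1 to Clca3b (0.90) and Cebpd to Arrdc3 (0.90). Sult1a1 was nearest to Iqgap2 (0.96), Inmt (0.94) and Gstt1 (0.94). Mt2 was nearest to probe sets of 2 small RNA genes, Mir692-1 (0.90) and Snord82 (0.82).

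Upstream of these genes in the pathway, neither receptor gene was called, and the 3 called chaperone genes peaked late in the dark. Nr3c1, the glucocorticoid receptor gene, had a difference around lights off against lights on of 0.04 ± 0.07 (adjusted p 0.746, mean intensity 2215), and Nr3c2, the mineralocorticoid receptor gene, 0.14 ± 0.10. Of 11 tested genes for receptors and chaperones, 3 had a 24 h rhythm, against 2.13% of genes. They were Hsp90aa1 at 20.34 h (adjusted p 0.0117), Stip1 at 21.28 h (0.0183) and Fkbp4 at 20.82 h (0.0275, limma). Fkbp4 encodes the co-chaperone that competes with the product of Fkbp5. Its peak-to-trough difference was 0.42 ± 0.08. In the lights off against lights on comparison 2 of these 11 were above 0, against 7953 of 14953 genes. None of the 11 was called, and their median was -0.22.

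Of 11 tested genes for hormone supply and activation, H6pd was called, where 2.13% of genes had a 24 h rhythm and 0.983% were higher around lights off. It had a 24 h peak at 10.27 h and a range of 1.57-fold (adjusted p 0.0275, limma). Its lights off against lights on difference was 0.53 ± 0.09 (adjusted p 0.0152, limma). H6pd makes the cofactor with which the enzyme encoded by Hsd11b1 turns inactive steroid into active hormone. Hsd11b1 itself had 0.52 ± 0.25 (adjusted p 0.337) and Hsd11b2, which inactivates the hormone, 0.11 ± 0.12. Of 10 tested coregulators none was called, with a median difference of 0.07.

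Of 28 other tested genes known as induced by glucocorticoids, 7 were called higher around lights off and none lower, against 0.983% and 0.889% of all genes. Above 0 were 27, with a median of 0.24, against 7953 of 14953 genes and a median of 0.01. The list was chosen with results of these arrays known. Per1, a repressor of the clock, had 1.44 ± 0.15 (adjusted p 0.00153), and Glul 0.69 ± 0.11 (0.0117). The transcription factor genes Klf15 and Klf9 had 0.65 and 0.55 (adjusted p 0.00708 and 0.0109), Hif3a 0.50 (0.0279), Rasd1 0.48 (0.0125) and the kinase gene Map3k6 0.45 (0.0251). Per1 and Klf9 are also known targets of the clock. Dusp1, a phosphatase of MAP kinases, had 0.54 ± 0.18 (adjusted p 0.193), and Il1r2, a decoy receptor for interleukin-1, was the one below 0 (-0.29 ± 0.12). A 24 h rhythm was called in 7 of the 28 (Per1, Klf9, Klf15, Glul, Hif3a, Rasd1 and Txnip), against 2.13% of genes. All 7 had peaks between ZT6 and ZT18, as had 165 of the 318 genes called over all genes tested.

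**Figure D4:**
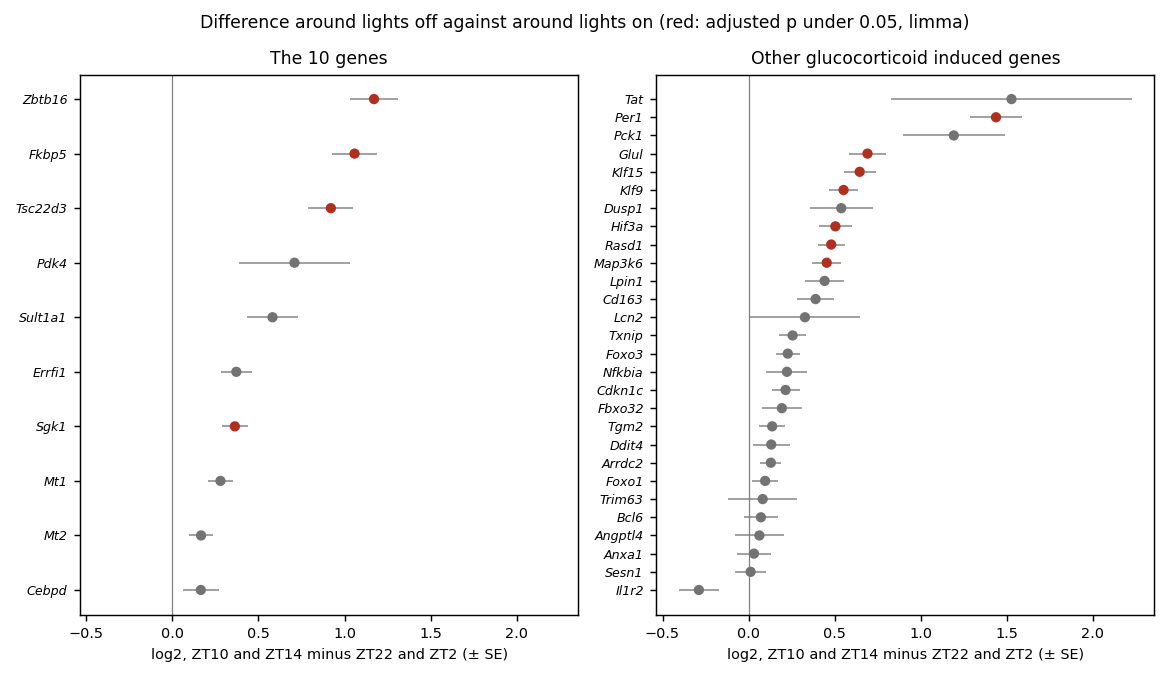
Difference in log2(intensity + 16) between ZT10 and ZT14 (4 arrays) and ZT22 and ZT2 (5 arrays) with its SE, for the 10 genes (left) and for 28 other genes known as induced by glucocorticoids (right); red points have an adjusted p under 0.05 (limma). All 10 differences on the left and 27 of 28 on the right lie above 0, against 7953 of 14953 over all genes tested. On the left Zbtb16, Fkbp5, Tsc22d3 and Sgk1 are red.

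Among relatives and partners of the 10 genes few were called. Over all genes tested 2.13% had a 24 h rhythm, and 0.983% were called higher and 0.889% lower around lights off. Of 17 tested family members, 1 had a 24 h rhythm, Fkbp4, and none was called around lights off against lights on. Pdk3, a relative of Pdk4, had -0.25 ± 0.10 (adjusted p 0.249). Of 6 tested targets of the SGK1 kinase, Nedd4l, a ubiquitin ligase of the sodium channel, had a 24 h rhythm, with a peak at 10.18 h, a 1.22-fold range and an adjusted p of 0.0406. None of 9 genes of the EGF receptor and its ligands, of 7 genes around the pyruvate dehydrogenase complex or of 7 tested genes known as repressed by glucocorticoids was called in either test. None of 12 immediate early genes, which also respond to stress and handling, was called. Around lights off against lights on 11 of them were above 0, with a median of 0.19, against 7953 of 14953 genes. Fosb had the largest fitted range, 2.48-fold with a peak at 16.77 h (adjusted p 0.116, limma).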

How the data were processed

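Whole-transcript Affymetrix arrays measured RNA of 13 pools of back skin. The deposited values are probe set intensities on a linear scale, made with Affymetrix Expression Console 1.1.1 and PLIER 2.0, per the submitters' processing notes; the scaling between arrays and the genome build are not stated in the labels. The platform annotation gave 1 gene to 21789 of 35557 probe sets, several to 1621 and none to 12147; the brightest single-gene probe set stood for each of 19938 genes. Intensities were taken as log2(intensity + 16), so folds of dim genes are understated, and the dimmest 25% of genes were left out (14953 tested). Levels of different genes were not compared, except for the rank of skin markers among all genes, which also depends on each probe set's own brightness.

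limma 3.58.1 (R 4.3.3) fitted a 24 h cosine, the 6 times of day, their contrasts and a 12 h term. Dark against light was a separate fit without time of day. Benjamini-Hochberg adjustment was over all genes tested, with a threshold of 0.05. The method was tested on simulated data. Unadjusted p-values are from the same fits. Replicate numbers are collection days; 12 arrays form 6 pairs by hour for the day test. Deviations from the time-of-day means correlated between arrays of the first day at -0.66 to 0.55, median 0.00, and the main tests have no day block. No 2 columns were identical. The number of arrays limits the precision.

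The members and lists were chosen with earlier results of these data known. Named genes were the members, the 3 genes of each list with the smallest p in the 24 h test, a few fixed receptor, enzyme and metallothionein genes, and the 3 genes nearest to each member; other genes named from a list were chosen after their values were seen. Promoter sequences are RefSeq's for GRCm38.p6. Alternatives were other offsets, filters and normalizations, arrays left out, the day as a block, probe set means, a robust fit and covariates. Covariates were marker scores (mean standardized log2 levels) for liver, skeletal muscle or adipocytes. The olfactory receptor covariate was the median log2 level of olfactory and vomeronasal receptor genes on each array.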

Additional observations from a re-analysis of the deposited data

Results flagged for a closer look

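Among the 20 groups of arrays examined (each gene's dark and light arrays), 1 held an array far from the others: in the 6 dark arrays of Cebpd, the first ZT22 array read 363 and the nearest 299, a gap of 0.651 of the group's range. Chance flags about 1 in 20 such groups.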

How the results depend on the processing

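The differences of Fkbp5, Tsc22d3 and Zbtb16 around lights off against lights on stayed past the threshold in 26 of 27 alternatives, the exception being adipocyte markers as a covariate (adjusted p 0.0718, 0.0974 and 0.0965, limma), an alternative chosen after seeing the data. Sgk1 lost this call in 15 of 27. It lost the call with arrays shifted to the same median (adjusted p 0.0564) and kept it with quantile normalization (0.0292, limma). The 24 h calls of Fkbp5, Tsc22d3 and Zbtb16 were lost in 7, 9 and 6 of 27. No direction of any member reversed. Leaving out 1 array at a time gave 0 to 4 members with a 24 h rhythm (3 with all arrays) and 0 to 3 that differed by time of day (2). Over all genes the 24 h calls ranged from 126 to 414 (318). Around lights off against lights on 3 to 6 members were called (4), where 44 to 683 genes were called higher (147). The highest counts, 6 members and 683 genes, were both without the second ZT22 array. Calls summed over the steps between neighbouring times were 0 to 2 (0). With the collection day as a replicate block over hours 2 to 46 the 24 h count was 1 (211 genes in all) and the time-of-day count 0. That fit also leaves out hour 50, which without the block gave 2 and 0 and already ended the call of Sgk1 around lights off against lights on (adjusted p 0.0588, with the block 0.0754). Whether a day marks a shared batch is not known. The olfactory receptor covariate gave 0 for the 24 h count (160 genes in all) and 0 for the time-of-day count. Its 24 h differences were 1.30 (Fkbp5), 1.14 (Tsc22d3) and 1.28 (Zbtb16) against 1.23, 1.09 and 1.31. The adipocyte covariate gave 0 for both counts and 0 around lights off against lights on, with 49 genes called for a 24 h rhythm. The muscle covariate gave 0 for the time-of-day count. With the first ZT2 array and the second ZT22 array both left out, the time-of-day count was 6 and the step count 1. The count around lights off against lights on was then 8, with 1557 genes called higher in place of 147. The shares of all genes called for time of day or a step in these alternatives were not counted. The causes were not tested.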
